A study of Mus musculus with 12 samples.

Results

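The genes described here are the chromosomal neighbours of Tbl1xr1 in the mouse: 56 genes on chromosome 3 that overlap the interval from 12076652 to 32216594 of GRCm38, which is Tbl1xr1 with 10 Mb on each side, Tbl1xr1 itself excluded. They were chosen by position in the GENCODE M21 annotation and by a count of at least 10 in at least 6 of the 12 libraries, out of 54232 gene identifiers in the table, of which 17220 met the same count rule. The choice did not use the genotype. Messenger RNA of the cerebral cortex was measured by sequencing in 12 mice of the inbred strain C57BL/6J, aged 12 weeks. The mutant mice (n = 6, 3 females and 3 males) were homozygous for the Tbl1xr1 Y446C allele, Tbl1xr1Y446C/Y446C, a mouse model of Pierpont syndrome. The wild-type mice (n = 6, 3 females and 3 males) were wild type at Tbl1xr1 and shared strain, age and tissue with the mutants. Every cell of a mutant mouse carries the allele, and the sources used here do not say how the allele was made or from which strain its flanking DNA came. Libraries are named by sex, genotype and animal number.

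Tbl1xr1 encodes a WD-repeat subunit of the NCoR/SMRT corepressor complex, which carries the histone deacetylase Hdac3 to DNA-bound transcription factors, among them the receptor for thyroid hormone. An edit at a gene can touch its neighbours through shared regulatory DNA, and an allele carried in from another strain brings a stretch of linked chromosome with it, so levels of nearby genes are commonly read beside those of the edited gene. The question put to these genes is therefore how their levels in mutant cortex compared with wild type, and how that comparison ran with distance from Tbl1xr1.

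Tbl1xr1 lies at chromosome 3, 22076652 to 22216594, on the + strand. The 2 pieces of reference sequence that mark the locus are the bases just upstream of its start, which face the nearest of the 56 genes, and the codon that the allele alters. The first comes from the RefSeq promoter table for GRCm38.p6 and covers chr3:22076402-22076651 on the + strand, with capitals at each CG dinucleotide. The other was read from the GENCODE M21 transcript on GRCm38 and covers chr3:22203882-22203944 in exon 14 of 16, with capitals at the codon of Y446C (22203912 to 22203914), which encodes tyrosine in the reference.
Tbl1xr1 upstream: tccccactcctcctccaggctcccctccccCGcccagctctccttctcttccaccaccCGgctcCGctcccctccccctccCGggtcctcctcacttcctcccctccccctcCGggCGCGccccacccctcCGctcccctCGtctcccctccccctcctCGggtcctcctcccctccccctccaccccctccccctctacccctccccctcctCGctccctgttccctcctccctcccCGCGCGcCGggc
Tbl1xr1 Y446C codon: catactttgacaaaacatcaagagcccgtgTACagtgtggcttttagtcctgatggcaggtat
The 250 upstream bases held 15 CG dinucleotides and a GC content of 76%. Over all 32851 promoter windows of the table, each 250 bases before a gene start, the median was 6 CG, and 27.3% of windows held at least as many as the Tbl1xr1 window. For the neighbours, 37 windows of 29 genes were matched by symbol, with a median of 13 CG, and 40.5% of these windows held at least 15. The neighbours had met the count rule in cortex, while the windows of the whole table were not filtered by counts. The sets are therefore not like for like, here and for the motif below, and a comparison with genes of similar counts was not made. The half-site of nuclear receptors, AGGTCA, was searched on either strand (TGACCT on the other), without regard to overlap with other motifs. It stood in 14.0% of all windows and in 3 of the 37 windows of the neighbours, those of Ghsr, Mecom and Phc3. These letters were not in the 250 bases upstream of Tbl1xr1.

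The interval is sparsely populated close to Tbl1xr1. The annotation places 222 genes in it with Tbl1xr1 itself, all of which are in the table. Of these, 94 had no count in any library, and 71 others had a count without meeting the rule. The 56 that met it comprise 43 protein-coding genes, 9 long noncoding RNAs (6 lincRNAs, 2 antisense and 1 sense intronic) and 4 processed pseudogenes, with 26 at lower positions than Tbl1xr1 (left) and 30 at higher positions (right). Distances are given from gene edge to gene edge. The nearest is Gm43672, a lincRNA on the opposite strand whose start lies 510 bp from that of Tbl1xr1, and the next is the lincRNA Gm43674 at 78.2 kb. The nearest protein-coding genes of the 56 are Naaladl2 on the right at 1.58 Mb and Gyg on the left at 1.92 Mb, so that within 1 Mb of Tbl1xr1 only those 2 lincRNAs met the rule. The transcription start of Naaladl2 lies at its far edge, 2.93 Mb from Tbl1xr1, and that of Gyg at 1.92 Mb. The farthest on the left is Gm38317 at 9.10 Mb, and the next gene that met the count rule, Snx16, lies outside at 11.6 Mb. On the right the farthest is Kcnmb2 at 9.69 Mb, with Zmat3 just outside at 10.1 Mb. The log2 fold changes, mutant over wild type, were -0.17 for Gm38317, 0.11 for Kcnmb2, 0.13 for Snx16 and -0.12 for Zmat3. Lrrc34 met the count limit in exactly 6 libraries, at 0.418 ± 0.188 CPM in wild-type mice (SD, n = 6) and 0.590 ± 0.486 CPM in mutants (SD, n = 6), where female mutant 3 had 1.55 CPM and the 5 others at most 0.590 CPM. Of the 56 genes, 14 have exons that overlap exons of a gene on the opposite strand. Whether the counting used strand is not stated in those sources, so how reads in the shared stretches were assigned between those genes and their partners is not known.

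Counts assigned to genes ran from 21238427 to 32669138 in 11 libraries and came to 3748515 in female mutant 3, whose mitochondrial share was 31.6% against 5.23% to 10.4% in the others. The 56 genes held 54562 to 82488 counts in the 11 libraries and 9016 in female mutant 3. Levels are given as CPM, counts scaled to a common library size after TMM normalization. Where a gene had no count, its level may lie anywhere under a floor of 0.0861 to 0.137 CPM (1.16 CPM in female mutant 3), set at 3 counts per library that covers counting error only. Female mutant 3 was the highest or the lowest of all 12 libraries in 40 of the 56 genes (71.4%), against 79.4% of all genes tested, and it held a count of 0 in 6 of them, which no other library did. Where leaving out that library turned a sign or moved a printed fold change by over 1.5 times, the value without it is given too. The cortex markers Slc17a7, Tbr1 and Neurod6 summed to 756 to 1037 CPM in wild-type and 679.5 to 1062 CPM in mutant mice. Astrocyte markers (5 genes, 4 higher and 1 lower in mutants) summed to 1011 to 1171 CPM in wild-type and 1202 to 1394 CPM in mutant mice. These sums did not overlap. Taken singly, 0.438% of all genes tested did not overlap, and no such share was computed for sums. Striatal markers (7 genes, all lower in mutants) summed to 209 to 771 and 111 to 340 CPM. By edgeR, 0 of these astrocyte and striatal markers passed the test, and their part in the results below was not tested.

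Tbl1xr1 itself was the reference point. Its level ran from 92.7 to 114 CPM in wild-type mice (median 107) and from 90.7 to 97.9 CPM in mutants (median 93.0), so the groups overlapped. Its log2 fold change was -0.17 ± 0.068 (SE), with a 95% interval from -0.32 to -0.025. By edgeR's quasi-likelihood test the unadjusted p was 0.025 and the adjusted p was 0.950. Under the alternative settings listed at the end, its log2 fold change over both sexes ran from -0.26 to -0.15. Of the 6 subunits of the NCoR/SMRT list, Tbl1xr1 included, 2 were higher and 4 lower, with a median of -0.064, and 0 passed the test.

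None of the 56 neighbours passed the test of mutant against wild type over both sexes. By edgeR's quasi-likelihood test, with sex as a covariate and Benjamini-Hochberg adjustment over the 18016 genes tested, 0 of the 56 had an adjusted p under 0.05, where 1 of the 18016 did (0.00555%). The smallest adjusted p among the 56 was 0.950. DESeq2 called 29 genes in all (0.161%), limma-voom 1 (0.00555%) and limma-voom with library weights 22 (0.122%), and 0 of each were among the 56. At an unadjusted p under 0.05, edgeR gave 1 of the 56, the lincRNA Gm2464, against 3.96% of all genes. In 0 of the 56 did the 6 mutant values lie wholly above or below the 6 wild-type values, against 0.438% of all genes tested. The point estimates ran from -0.50 for Gpr160 to 1.17 for Gm5844, and the median size of the log2 fold change, sign aside, was 0.11 for the 56 and 0.12 for all genes tested.

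**Figure D1:**
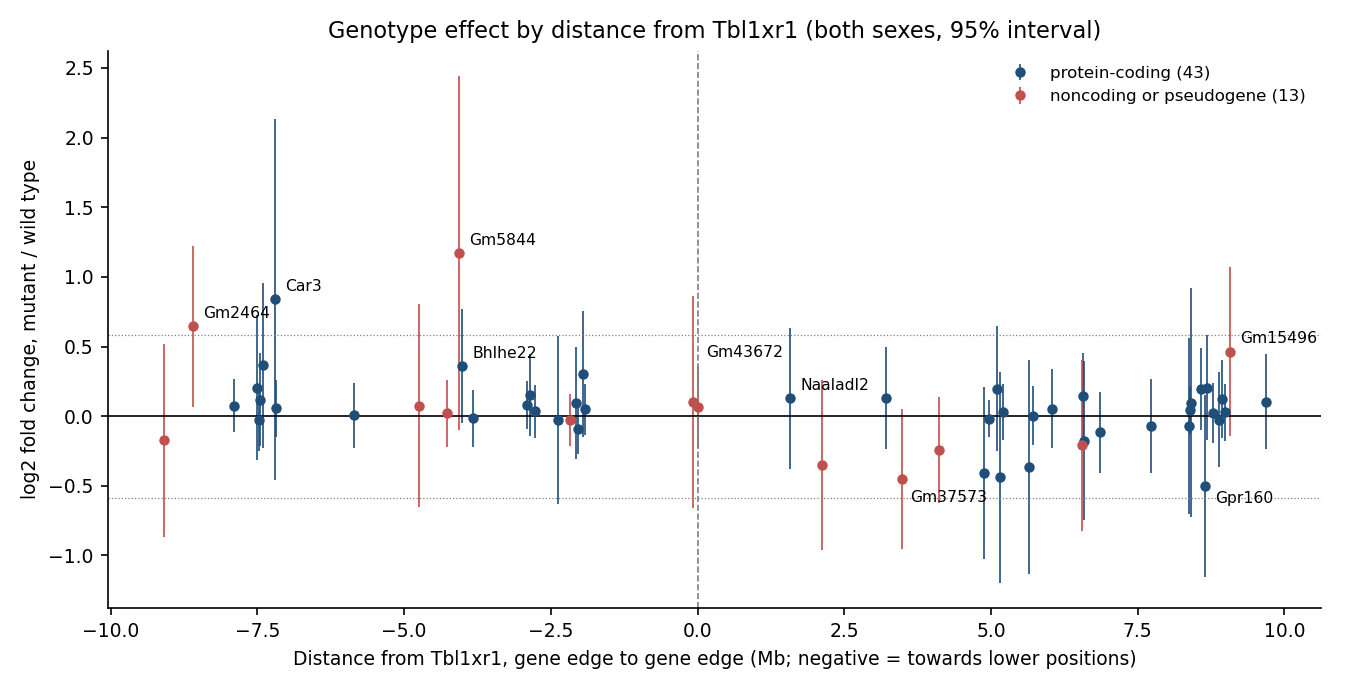
Log2 fold change of mutant over wild type (y axis, both sexes, n = 6 mice per genotype) against distance from Tbl1xr1 in Mb (x axis, negative towards lower positions) for the 56 genes, with 95% intervals and dotted lines at a 1.5-fold change in either direction. Blue points are the 43 protein-coding genes and red points the 13 others; all intervals but that of Gm2464 cross 0, and the widest belong to Gm5844 and Car3.

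The width of the intervals says how large a difference these data could have hidden. The 95% interval lay within a 1.5-fold change in either direction for 31 of the 56 genes, against 60% of all genes tested, and within a 2-fold change for 48, against 87.3%. Among the 29 neighbours with a mean of at least 10 CPM, 25 had intervals within 1.5-fold. The narrowest among the named genes was that of Nceh1, the neutral cholesterol ester hydrolase, from -0.15 to 0.11 on the log2 scale. The interval reached beyond 2-fold for 8 genes, and for those a difference of that size was not excluded. All these intervals are for the effect over both sexes, gene by gene, without adjustment for the number of genes. They do not bound the effect within 1 sex, where the median SE of the 56 was 0.22 in females and in males, against 0.16. For Rpl22l1 the interval ran from -0.74 to 0.39 over both sexes and from -1.43 to 0.020 in females.

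In the ring of 0 to 1 Mb stood only the lincRNAs Gm43672 and Gm43674, neither of which differed between genotypes beyond the spread between mice. Gm43672 (ENSMUSG00000106019, 22074412 to 22076142, - strand) ran from 4.25 to 6.36 CPM in wild-type mice with a median of 5.15, and from 4.48 to 6.91 CPM in mutants with a median of 5.03. The groups lay over one another, and female mutant 3, at 5.03 CPM, was within them. Its log2 fold change was 0.066 ± 0.14 (SE) with an interval from -0.23 to 0.36. Gm43674 ran from 0.465 to 1.41 CPM in wild-type mice (median 0.954), and in mutants from a count of 0 in female mutant 3 to 1.40 CPM (median 0.953). At this level its interval, from -0.66 to 0.86, spanned more than a 1.5-fold change in both directions.

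Between 1 and 2.5 Mb lay 8 genes, 4 higher and 4 lower, with a median log2 fold change of 0.011. Gyg, glycogenin, which primes glycogen synthesis, ran from 19.5 to 26.2 CPM in wild-type mice (median 23.5) and from 22.8 to 25.4 CPM in mutants (median 24.1). All 6 mutants fell inside the wild-type range, and the log2 fold change was 0.048 ± 0.083 (SE). Hltf, a DNA translocase that acts at stalled replication forks, ran from 31.4 to 43.1 CPM in wild-type mice (median 39.7) and from 35.2 to 100.3 CPM in mutants (median 41.8). Female mutant 3 alone stood high, the 5 other mutants reaching at most 44.7 CPM, and the log2 fold change of 0.30 ± 0.21 (SE) came to 0.063 without that library. Hps3, a subunit of a complex for lysosome-related organelles, had 17.6 to 20.6 CPM in wild-type mice (median 19.6) and 16.0 to 20.5 CPM in mutants (median 18.7), a log2 fold change of -0.089 ± 0.083 (SE). Its exons overlap those of Cp, ceruloplasmin, on the other strand. On the right, Naaladl2, a relative of the glutamate carboxypeptidases, had 4.62 to 7.32 CPM in wild-type mice (median 5.61) and 4.96 to 15.5 CPM in mutants (median 5.47). The value of 15.5 CPM was that of female mutant 3, and the log2 fold change of 0.13 ± 0.23 (SE) became -0.086 without it. Gm7536, a processed pseudogene whose counts may be shared with its parent gene, had 4.33 to 12.0 CPM in wild-type mice (median 6.17) and 2.71 to 8.33 CPM in mutants (median 4.83), and the groups overlapped.

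Between 2.5 and 5 Mb lay 13 genes, 8 higher and 5 lower, with a median of 0.036, and between 5 and 10 Mb lay 33, 22 higher and 11 lower, with a median of 0.041. The ring of 0 to 1 Mb had a median of 0.084 over its 2 genes. Farther along chromosome 3 the medians were 0.021 over 98 genes between 10 and 20 Mb, 0.034 over 86 genes between 20 and 40 Mb and 0.00022 over 732 genes beyond 40 Mb, and the 17031 genes of other chromosomes had -0.011. Between mice of the same sex and genotype, the median over a ring's genes, on the log2(CPM + 0.5) scale, had an SD of 0.33, 0.18, 0.11 and 0.085 from the inner ring to that of 5 to 10 Mb. Each of the 4 median fold changes was smaller than the SD of its ring. That SD describes single mice and not the smaller error of a difference between group means, so this comparison is no test of the fold changes. The 4 medians without female mutant 3 were 0.13, -0.071, -0.021 and -0.021, so the sign turned in all rings but the innermost, and the SDs were 0.24, 0.11, 0.035 and 0.066. Whether the rings differ from one another was not tested.

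**Figure D2:**
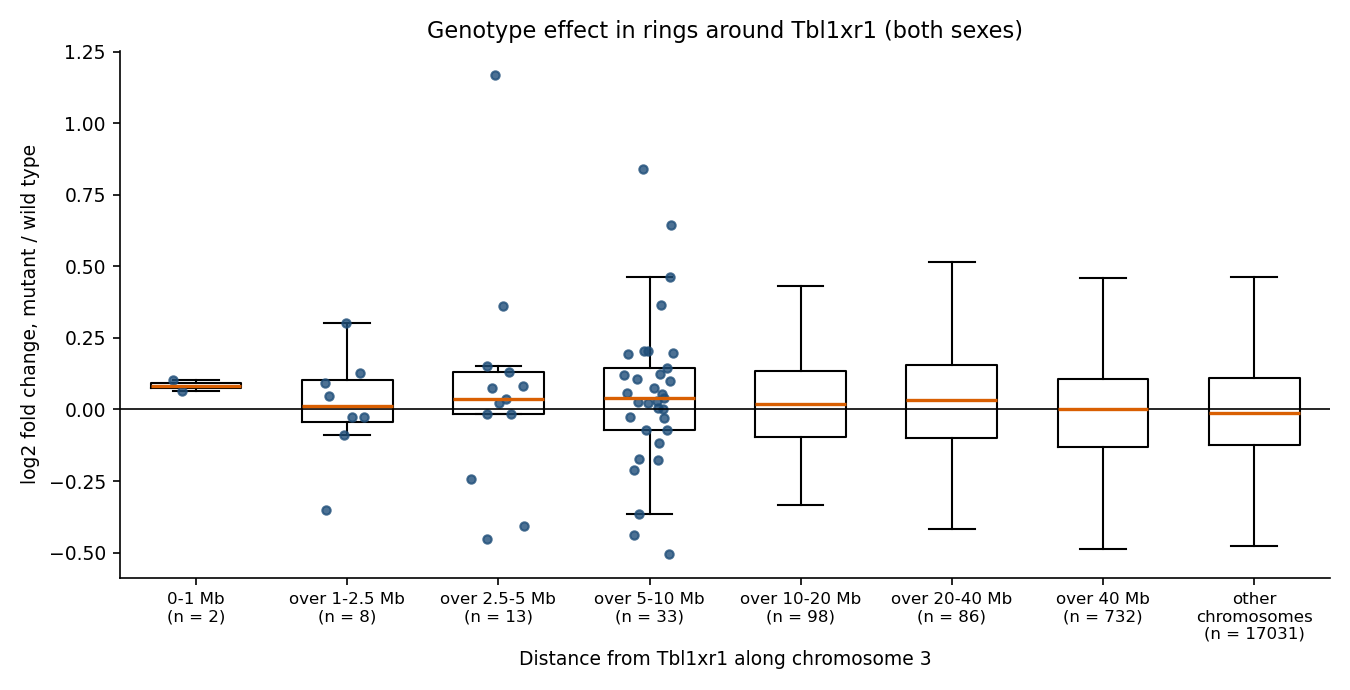
Log2 fold change of mutant over wild type (y axis, both sexes) by ring of distance from Tbl1xr1 along chromosome 3 and for other chromosomes (x axis). Boxes span the quartiles with the median in orange, whiskers reach the last gene within 1.5 box lengths, genes beyond them are drawn only in the 4 inner rings, where points are the single genes; the medians lie between -0.011 and 0.084.

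Over the 56 genes, 36 were higher and 20 lower in mutants (64.3% higher, against 47.6% of all genes tested), with a median log2 fold change of 0.045 against -0.010. On the left 20 of 26 were higher, and on the right 16 of 30. This lean did not hold without 1 library. Without female mutant 3, 24 of the 56 were higher and 32 lower, and the median was -0.024 against 0.0023 for all genes, while 1 of the 56 had an unadjusted p under 0.05, against 7.46% of all genes. Among the 29 genes of at least 10 CPM, 23 were higher with all libraries and 13 without female mutant 3. When counts were scaled by library totals in place of TMM, the median of all genes moved by -0.071, and 23 of the 56 were above 0, while 35 stood above the median of all genes against 36 under TMM.

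The genes named next are taken by role, from lists drawn up for these neighbours, in each of which 0 members passed edgeR's test. Without female mutant 3 the medians given below for the lists of neuronal signalling, transcription and RNA binding turned to -0.074, -0.00029 and -0.029, those of metabolic enzymes and cell division fell to 0.033 and 0.00047, and that of the genes in no list came to -0.072. The levels between genes are compared per kb of exon (CPM per kb, mean of 12 libraries). Cldn11, the claudin of oligodendrocyte tight junctions, stood highest at 88.8 CPM per kb, followed by Car2, the cytosolic carbonic anhydrase II of oligodendrocytes, at 64.5, Sec62, a channel subunit for protein entry into the endoplasmic reticulum, at 50.0, Nceh1 at 31.9 and Armc1, a protein of the mitochondrial surface, at 24.8 CPM per kb. The lowest were Gpr160, an orphan receptor, at 0.101 and Ghsr, the ghrelin receptor, at 0.136 CPM per kb, so the 56 genes spanned levels from near the floor to those of abundant glial transcripts.

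**Figure D3:**
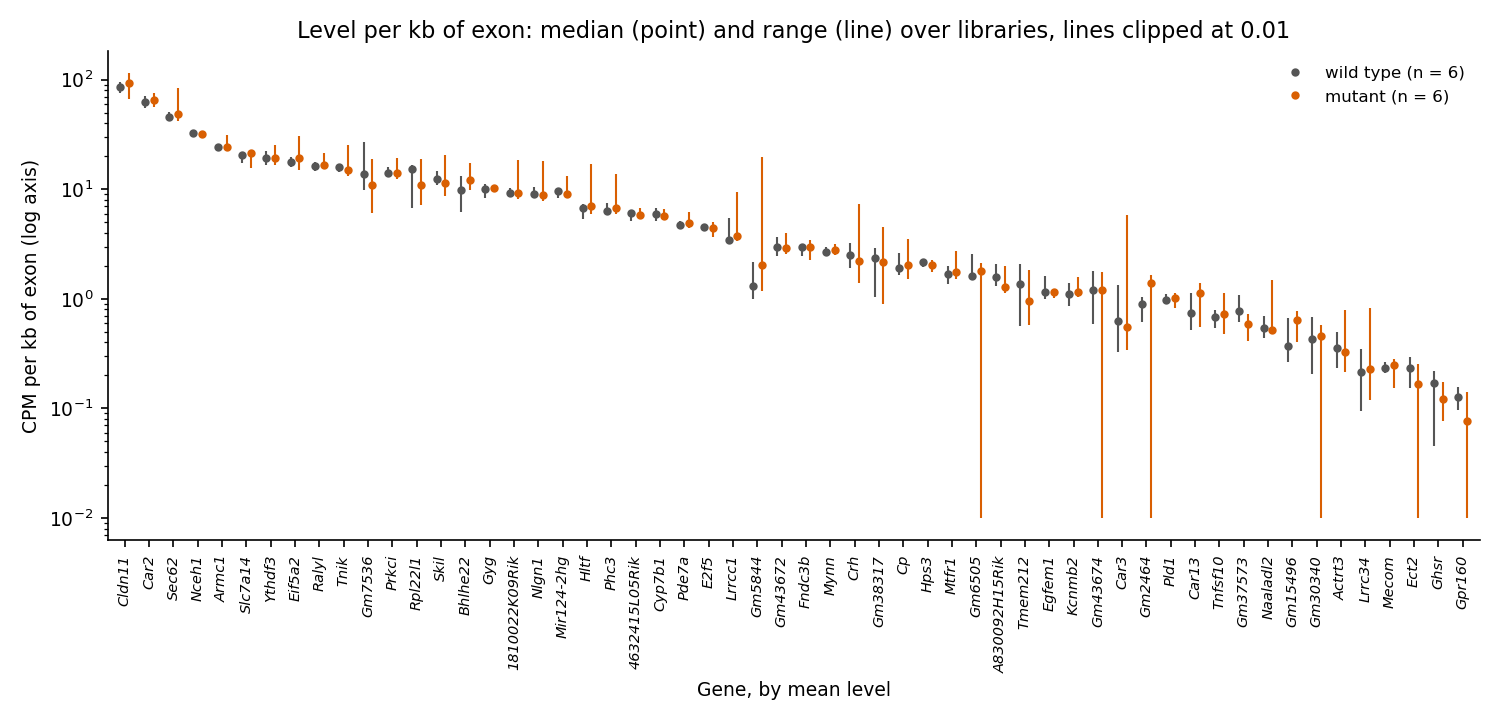
Level per kb of exon (y axis, CPM per kb, log scale) of the 56 genes, ordered by mean level, in wild-type (grey) and mutant (orange) mice. Points are medians of 6 libraries and lines run from the lowest to the highest library, drawn down to 0.01 where a library had a count of 0, as female mutant 3 had in 6 genes; the medians of both genotypes lie close together for most genes.

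Of the list of neuronal signalling and excitability, 10 of 12 genes met the count rule, Dnajc5b and Agtr1b being the others, and 7 were higher and 3 lower with a median of 0.031. Nlgn1, the postsynaptic adhesion protein neuroligin 1, ran from 116 to 142 CPM in wild-type mice (median 121) and from 106 to 245 CPM in mutants (median 120). The highest value, 245 CPM, was that of female mutant 3, and the 5 other mutants, up to 137 CPM, lay inside or just under the wild-type range. The log2 fold change was 0.13 ± 0.17 (SE), and -0.062 without that library. Kcnmb2, a regulatory subunit of large-conductance potassium channels, ran from 2.71 to 4.39 CPM in wild-type mice (median 3.47) and from 3.27 to 4.96 CPM in mutants (median 3.63), a log2 fold change of 0.11 ± 0.16 (SE). Ghsr ran from 0.202 to 0.977 CPM over the 12 libraries, with a log2 fold change of -0.44 ± 0.35 (SE). Gpr160 had 0.409 to 0.666 CPM in wild-type mice and 0.273 to 0.603 CPM in 5 mutants, with a count of 0 in female mutant 3, whose floor of 1.16 CPM lies above every other library, and a log2 fold change of -0.50 ± 0.30 (SE). Tnik, a kinase of the postsynaptic density, was the most counted of the list at 305 ± 15.8 CPM in wild-type mice (SD, n = 6) and 321 ± 86.5 CPM in mutants (SD, n = 6). Crh, corticotropin-releasing hormone, had 3.28 ± 0.623 CPM in wild-type (SD, n = 6) and 3.90 ± 2.87 CPM in mutant mice (SD, n = 6). In both genes the wide mutant spread came with female mutant 3. It had 491 CPM for Tnik, where the 5 other mutants ran from 252 to 322 CPM with a mean of 287, and 9.68 CPM for Crh, where the others ran from 1.84 to 3.26 CPM with a mean of 2.75.

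All 7 genes of the list of transcription and chromatin met the rule, 4 higher and 3 lower with a median of 0.041. Bhlhe22, a basic helix-loop-helix factor of cortical projection neurons, had 20.6 to 44.4 CPM in wild-type mice (median 33.1) and 32.7 to 58.1 CPM in mutants (median 40.8). Female mutants 3 and 6 stood above every wild-type mouse, and the 4 other mutants lay inside the wild-type range. The log2 fold change was 0.36 ± 0.19 (SE) with an unadjusted p of 0.081 and an adjusted p of 0.950 by edgeR. E2f5, a repressor of the E2F family, had a log2 fold change of -0.029 ± 0.10 (SE), and -0.00029 without female mutant 3. Mecom, a zinc-finger factor of blood stem cells, had one of -0.073 ± 0.16 (SE). Phc3, a Polycomb subunit, was at 114 ± 9.86 CPM in wild-type mice (SD, n = 6) and 135 ± 52.7 CPM in mutants (SD, n = 6), and Skil, a repressor of SMAD signalling, at 120 ± 13.8 and 120 ± 39.6 CPM (SD, n = 6 each). Female mutant 3 was again far above the rest, at 242 CPM for Phc3 and 197 CPM for Skil. The 5 other mutants reached at most 121 CPM for Phc3, with a mean of 114, and 116 CPM for Skil, with a mean of 105.

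The 6 genes of RNA binding, translation and secretion split into 4 higher and 2 lower, with a median of 0.039. Sec62 had 185 to 218 CPM in wild-type mice (median 199) and 181 to 368 CPM in mutants (median 213). Again the highest value belonged to female mutant 3, the next mutant being at 231 CPM, and the log2 fold change of 0.19 ± 0.14 (SE) came to 0.050 without it. Eif5a2, an isoform of the elongation factor eIF5A, had 80.2 to 98.6 CPM in wild-type mice (median 89.2) and 75.2 to 154 CPM in mutants (median 96.6), the last in female mutant 3. Its log2 fold change was 0.14 ± 0.14 (SE), and 0.0035 without that library. Ythdf3, a reader of N6-methyladenosine, had a log2 fold change of 0.0052 ± 0.11 (SE), a sign that turned under 12 of 24 alternatives, to -0.061 without female mutant 3. Ralyl, an hnRNP-like RNA-binding protein, was at 59.8 ± 4.52 CPM in wild-type (SD, n = 6) and 63.4 ± 7.81 CPM in mutant mice (SD, n = 6). Its log2 fold change was 0.073 ± 0.088 (SE), and 0.021 without female mutant 3.

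Of 11 metabolic enzymes and transporters, 8 met the count rule, Car1, Slc2a2 and Slc7a12 being the others, and 6 were higher and 2 lower with a median of 0.052. The carbonic anhydrases Car13, Car3 and Car2 lie in this order between 14641727 and 14900770. Car2 had 134 to 171 CPM in wild-type mice (median 151) and 135 to 184 CPM in mutants (median 158), a log2 fold change of 0.057 ± 0.095 (SE). Car3 had 0.932 to 3.87 CPM in wild-type mice (median 1.79) and 0.976 to 16.5 CPM in mutants (median 1.58). The value of 16.5 CPM was that of female mutant 1 alone, and without that mouse the log2 fold change turned from 0.84 to -0.31. Car13 had 1.21 to 2.58 CPM in wild-type mice (median 1.70) and 1.27 to 3.23 CPM in mutants (median 2.59), and its log2 fold change was 0.36 ± 0.27 (SE). Of 12 carbonic anhydrase genes elsewhere in the genome, 10 were tested, 5 higher and 5 lower, with a median of 0.028 and 0 called. Their median was -0.011 without female mutant 3. Nceh1 was the steadiest of these enzymes, at 169 ± 6.63 CPM in wild-type (SD, n = 6) and 167 ± 3.29 CPM in mutant mice (SD, n = 6).

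The lists of glial genes and of cell division held 2 and 5 neighbours. Cldn11 had 142 to 180 CPM in wild-type mice (median 159) and 125 to 215 CPM in mutants (median 175). Mutants stood both above and below every wild-type mouse, and the log2 fold change was 0.12 ± 0.13 (SE). Summed oligodendrocyte markers (9 genes, 3 higher and 6 lower, none at 0) spread likewise, from 5581 to 6736 CPM in wild-type and from 4982 to 7978 CPM in mutant mice. In such bulk tissue fewer cells of a type and less RNA per cell cannot be told apart. Tnfsf10, the death ligand TRAIL, was at 3.51 ± 0.452 CPM in wild-type (SD, n = 6) and 3.89 ± 1.32 CPM in mutant mice (SD, n = 6). Its log2 fold change was 0.20 ± 0.21 (SE). Of the cell division list, with Trim55 short of the count rule, 4 were higher and 1 lower, with a median of 0.081. Ect2, the exchange factor that starts cytokinesis, was low, at 0.831 to 1.58 CPM in wild-type mice (median 1.25) and from a count of 0 in female mutant 3 to 1.38 CPM in the other mutants (median 0.895), a log2 fold change of -0.41 ± 0.28 (SE). Lrrcc1, a centrosomal protein, had 24.7 to 40.9 CPM in wild-type mice (median 25.9) and 25.1 to 70.9 CPM in mutants (median 27.9), with 1 high mouse in each genotype, male wild-type 8 and female mutant 3. Its log2 fold change was 0.21 ± 0.24 (SE) and -0.056 without female mutant 3. Armc1 had 82.8 to 95.9 CPM in wild-type mice (median 88.5) and 88.4 to 115 CPM in mutants (median 90.1), where all but female mutant 3 were at or under 91.4 CPM. Mtfr1, a regulator of mitochondrial fission, had a log2 fold change of 0.15 ± 0.14 (SE), and 0.082 without that library.

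In the remaining 18 genes, which are in no role list, 9 were higher and 9 lower, with a median of -0.0022. Gm2464 (ENSMUSG00000102215, 13470439 to 13471829, - strand, 8.60 Mb to the left) was the gene of smallest p and was chosen after its values were seen. It had 0.537 to 0.915 CPM in wild-type mice (median 0.787), and in mutants 1.12 to 1.46 CPM apart from a count of 0 in female mutant 3, whose floor of 1.16 CPM lies above every wild-type value. The 5 other mutants thus stood above all 6 wild-type mice. Over all genes tested, those 5 mutants lay wholly above or below wild type in 1.08%. The log2 fold change was 0.64 ± 0.27 (SE) with an unadjusted p of 0.030 and an adjusted p of 0.950 by edgeR, and without female mutant 3 it was 0.72. Over 24 alternatives the adjusted p ran from 0.0778, by limma-voom with library weights, to 0.9998. Its exons overlap the first exon of Ralyl on the other strand, and a further gene identifier carries the same symbol. Gm5844, a processed pseudogene, had 2.20 to 4.73 CPM in wild-type mice (median 2.89) and 2.58 to 43.4 CPM in mutants (median 4.45). The 43.4 CPM was that of female mutant 3, the other mutants reaching at most 4.93 CPM, and the log2 fold change of 1.17 ± 0.59 (SE) came to 0.38 without it. Gm15496, an antisense RNA, had a log2 fold change of 0.46 ± 0.28 (SE), and Gm37573, a transcript within an intron of Nlgn1, one of -0.45 ± 0.23 (SE) at 0.387 to 0.9999 CPM. A830092H15Rik, whose exons overlap those of Nlgn1 on the other strand, was at -0.24 ± 0.18 (SE), and Egfem1, of uncharacterised role, at -0.12 ± 0.13 (SE).

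**Figure D4:**
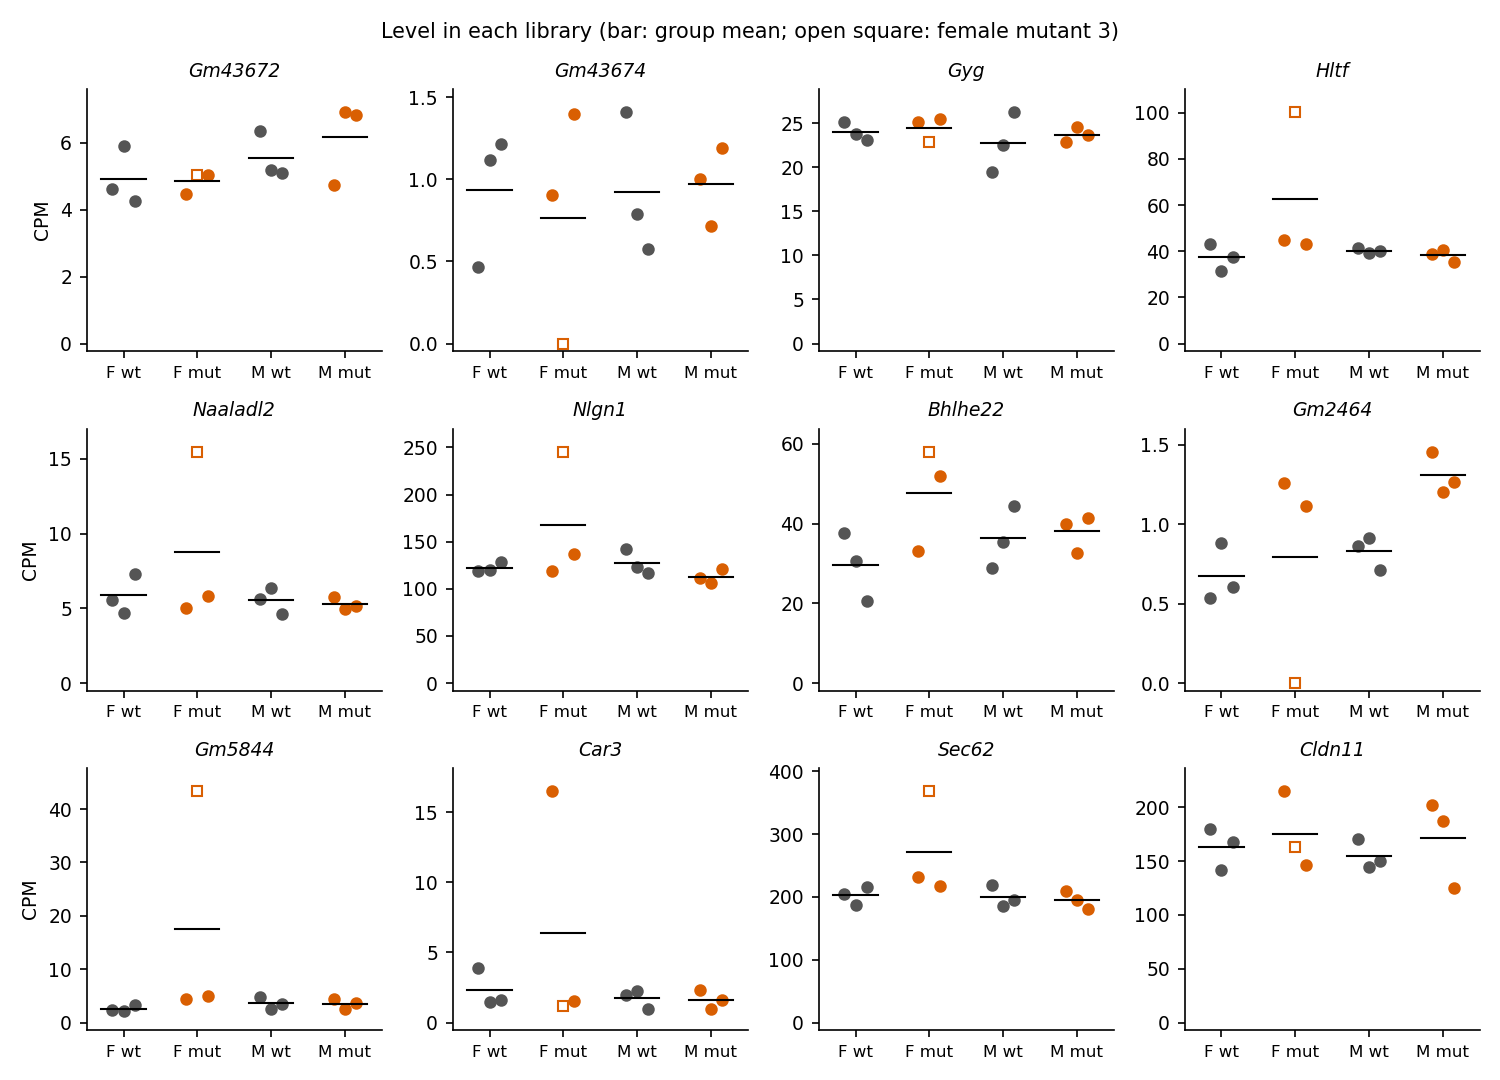
CPM in each library (y axis, linear, a separate scale in each panel) for 12 of the genes, by sex and genotype (x axis: F, female; M, male; wt, wild type; mut, mutant; n = 3 mice per group). Black bars are group means and open squares mark female mutant 3, which is the highest library for Hltf, Naaladl2, Nlgn1, Bhlhe22, Gm5844 and Sec62 and is at 0 for Gm43674 and Gm2464; in Car3 the high mouse is female mutant 1 at 16.5 CPM.

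Taken by sex, the 56 genes leaned in opposite directions as a set, and none passed the test in either sex. In females, edgeR called 0 of the 56, as it called 0 of all genes tested (0%), and at an unadjusted p under 0.05 it gave 6 of the 56, against 11.8% of all genes. These were Gm5844, Bhlhe22, Hltf and Sec62, higher in female mutants by 2.44, 0.66, 0.69 and 0.42 on the log2 scale, and Tmem212 and Ect2, with log2 fold changes of -1.19 and -0.88. The 4 higher ones compare with 7.98% of all genes that were higher at that limit, and the smallest adjusted p was 0.418. DESeq2 (0.0333% of all genes called), limma-voom with library weights (0.0222%) and limma-voom (0%) also called 0 of the 56 in females. Without female mutant 3 the log2 values of the first 4 were 0.85, 0.52, 0.23 and 0.15, and 8 of the 56, 4 higher and 4 lower, had an unadjusted p under 0.05, against 9.41% of all genes. In all, 39 of the 56 were higher in female mutants (69.6%, against 46.5% of all genes), with a median of 0.14 against -0.031, and without female mutant 3 34 were higher, with a median of 0.071. For the 29 genes of at least 10 CPM the female median was 0.16, and 0.072 without that library. With scaling by library totals the median of all genes in females moved by -0.18 and 21 of the 56 were above 0, while 42 stood above the median of all genes, against 41 under TMM.

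In males, where female mutant 3 enters the spread but not the means, edgeR called 0 of the 56 and 0 of all genes (0%), and 0 of the 56 had an unadjusted p under 0.05, against 2.78% of all genes. None of the 56 was among the 1.03% of genes that were higher in males at that limit. DESeq2 (0.0222% of all genes called), limma-voom with library weights (0.00555%) and limma-voom (0%) called 0 of the 56 in males, and at an unadjusted p under 0.05 they gave 1, 3 and 1, against 2.68%, 8.91% and 3.19% of all genes. Without female mutant 3 edgeR gave 2 of the 56 at that limit in males, against 8.43% of all genes. Of the 56, 19 were higher and 37 lower in male mutants (33.9% higher, against 51% of all genes), with a median of -0.066 against 0.0050. The 98 genes of chromosome 3 between 10 and 20 Mb from Tbl1xr1 leaned likewise, 68.4% higher in females and 28.6% in males, with medians of 0.13 and -0.095. When female mutant 3 was left out, they came to 58.2% higher in females, with a median of 0.038, and 28.6% in males, with one of -0.094. The male values of smallest p with a mean of at least 1 CPM were those of Gm7536, -0.76 ± 0.36 (SE), Ythdf3, -0.21 ± 0.13 (SE), and Gm15496, 0.58 ± 0.40 (SE). Gm7536 had 7.18, 12.0 and 11.1 CPM in male wild-type mice and 8.33, 3.93 and 5.73 CPM in male mutants, and its female values, from 2.71 to 8.30 CPM, did not order by genotype.

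The difference between the effect in females and that in males was tested directly, and edgeR called 0 of the 56, as of all genes (0%). At an unadjusted p under 0.05 it gave 5 of the 56, against 7.67% of all genes, with a smallest adjusted p of 0.555. They were Gm5844, Kcnmb2 and Ythdf3 in the direction of females (2.46, 0.62 and 0.43 on the log2 scale) and Tmem212 and Rpl22l1 in the other (-1.52 and -1.01). The difference for Gm5844 fell to 0.87 without female mutant 3, and those of Kcnmb2, Ythdf3, Tmem212 and Rpl22l1 were 0.67, 0.33, -1.58 and -1.08. Kcnmb2 had 3.58, 3.20 and 2.71 CPM in female wild-type and 3.85, 3.49 and 4.96 CPM in female mutant mice, against 4.0, 3.37 and 4.39 CPM in male wild-type and 3.78, 3.27 and 3.27 CPM in male mutant mice. In each sex the genotypes overlapped by 1 pair of mice. Rpl22l1, a paralogue of a ribosomal protein, ran from 14.1 to 19.7 CPM in female mutants and from 17.5 to 33.4 CPM in female wild-type mice. In males it ran from 24.1 to 37.8 CPM in mutants and from 13.4 to 32.4 CPM in wild-type mice. Tmem212, a membrane protein of uncharacterised role chosen after its values were seen, was the only one of the 5 whose mean lay under 1 CPM. Of the 56, 38 had opposite signs in females and males, against 62% of all genes. Higher in females and lower in males were 29 of the 56, a larger share than the 28.7% of all genes. When female mutant 3 was left out, 29 of the 56 (51.8%) had opposite signs, against 53.8% of all genes. Higher in females and lower in males were then 22 of the 56 (39.3%), against 25.4% of all genes. For the genes of chromosome 3 between 10 and 20 Mb that share was 39.8%.

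**Figure D5:**
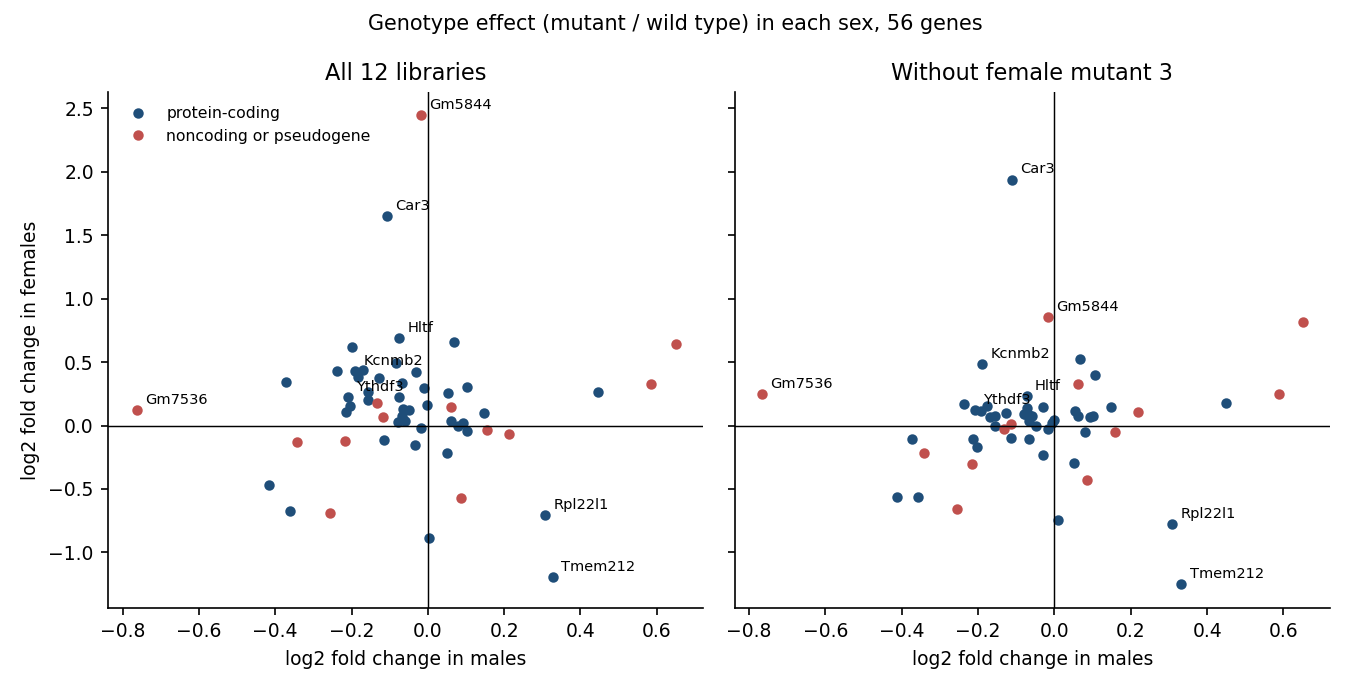
Log2 fold change of mutant over wild type in females (y axis) against that in males (x axis) for the 56 genes, with all 12 libraries (left panel) and without female mutant 3 (right panel, same axes, n = 2 female mutants). Points lie mostly left of 0, 37 of the 56 being lower in males, and without female mutant 3 Gm5844 and Hltf move down towards 0 while Tmem212 and Rpl22l1 stay in place.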

How the data were processed

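Cortex RNA of 12 mice was prepared with TriReagent and a column kit, made into libraries with the Kapa mRNA HyperPrep kit and sequenced as read pairs on a NovaSeq, per the labels' protocols. The authors deposited whole-number read counts for each gene and library, not normalized. The submitters' processing notes name Trimmomatic 0.36, HISAT2 2.1.0, HTSeq 0.11, Cufflinks (no version) and GRCm38.p6. The sources used here do not give the annotation release or the strand setting. Of 54232 identifiers, 54165 matched GENCODE M21.

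The filterByExpr filter over the 4 groups left 18016 genes, all 56 neighbours among them. After TMM scaling, edgeR 4.0.16 (R 4.3.3) fitted the quasi-likelihood model, with sex and genotype as terms over both sexes and a mean for each group within females and males, from which the difference of their effects was taken. The Benjamini-Hochberg adjustment ran over every gene tested, with calls at 0.05. Standard errors and 95% intervals come from that fit, whose steps were tested on simulated data. Samples are separate animals, and the labels name no batch.

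Named were the 5 nearest neighbours on each side, the 5 of smallest p in each direction over both sexes and the 3 in each sex and in the difference (mean of at least 1 CPM), the 5 of highest level per kb, any whose genotypes do not overlap, and examples from role lists. Gm38317, Snx16, Zmat3 and Lrrc34 are named as the genes at the edges of the position and count rules. Where another gene is named with its values, the text says that these were seen first. 1 listed cortex marker is not reported here. The members and lists were chosen with earlier results of these data known. Alternatives were DESeq2 1.42.0, limma-voom with and without library weights (limma 3.58.1), RLE and library-total scaling, other filters, no sex term, 1 mean per group, the mitochondrial share as a covariate, windows of 5 and 20 Mb, distance between transcription starts, and leaving out each library.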

Additional observations from a re-analysis of the deposited data

Results flagged for a closer look

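In 12 of 78 sets of 6 mice of 1 genotype, over the genes with a printed fold change and Tbl1xr1, 1 library lay farther from its nearest neighbour than Dixon's test allows at 95%. For independent sets, each from 1 normal population, chance would flag about 1 in 20, or 3.9 of 78. Here some genes were named for their values, all sets share the same libraries and each holds both sexes. The 12 can therefore not be weighed against that number. Female mutant 3 was the library in 9 of the 12. It had the highest mutant value, in CPM, for Lrrcc1 (70.9), Gm5844 (43.4), Armc1 (115), Hltf (100.3), Naaladl2 (15.5), Nlgn1 (245), Eif5a2 (154) and Sec62 (368), and a count of 0 for Gm2464, where its floor of 1.16 CPM lies inside the range of the other mutants. The same library had 3748515 counts and a mitochondrial share of 31.6%, and the part of either in these values was not tested.

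The other libraries that stood apart were female mutant 1 for Car3 at 16.5 CPM, female mutant 6 for Kcnmb2 at 4.96 CPM, and male wild-type 8 for Lrrcc1 at 40.9 CPM. Male wild-type 8 had the highest mitochondrial share of the 11 other libraries, 10.4%.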

How the results depend on the processing

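In all 91 fits, over tools, scalings, filters and left-out libraries, 0 of the 56 neighbours passed the test in any comparison, and the smallest adjusted p was 0.0778. Few of all genes passed either. Over both sexes the share was 0.00555% by edgeR, 0.161% by DESeq2, 0.00555% by limma-voom and 0.122% by limma-voom with library weights. The 0 of 56 is near these shares and does not set the neighbours apart from other genes. Of 38 neighbours with a printed fold change, 23 kept their sign under all 24 alternatives over both sexes and 15 did not. No paired analysis was possible because no animal number occurs in more than 1 group.

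The number of neighbours at an unadjusted p under 0.05 is given with the share of all genes at that limit under the same setting. Over both sexes it was 1 (3.96%). It was 2 with 1 mean per group (4.26%), 0 with library totals (3.89%), 0 by limma-voom (4.34%), 6 by limma-voom with library weights (12.7%; 6 also without female mutant 3, 12.3%), 3 with the mitochondrial share as covariate (9.77%) and 2 with no filter (3.56%). It was 0 of the 23 genes in the window of 5 Mb and 3 of the 149 in that of 20 Mb. In females, against 6 (11.8%), it was 10 by DESeq2 (14.4%) and 11 with no filter (8.43%). In males, against 0 (2.78%), it was 1 by DESeq2 (2.68%; 1 also without female mutant 3, 7.39%), 1 by limma-voom (3.19%), 3 with library weights (8.91%; 3 also without female mutant 3, 8.81%) and 1 with no filter (2.55%). For the difference, against 5 (7.67%), it was 3 with library totals (5%) and 2 with library weights without female mutant 3 (10.4%). Leaving out 1 library gave 0 to 3 over both sexes, 3 to 14 in females, 0 to 2 in males and 0 to 13 for the difference. In females the count was 14 without female mutant 1 (20.1%), 10 without female mutant 6 (17.2%) and 3 without female wild-type 4 (4.48%). For the difference it was 13 without female mutant 1 (16.2%), 12 without female mutant 6 (12.6%), 1 without female wild-type 4 (3.02%), 1 without male mutant 27 (5%), and 0 without male mutant 10 (3.54%) or male wild-type 8 (2.89%). Over both sexes, leaving out male mutant 10 (3.99%) or male wild-type 8 (5.38%) gave 3, female mutant 1 (3.84%) or male wild-type 13 (3.81%) gave 2, and female mutant 6 (3.47%) or male mutant 7 (3.38%) gave 0. In males, leaving out female mutant 3 (8.43%) or male wild-type 8 (1.76%) gave 2, and female mutant 1 (2.73%), female mutant 6 (2.67%) or male mutant 7 (2.44%) gave 1. The genotypes did not overlap in 1 neighbour, Gm2464, without female mutant 3, against 1.08% of all genes. Without male mutant 10 the CPM did not overlap in 1, Gpr160, against 0.91% of all genes, but its count of 0 in female mutant 3 has a floor of 1.16 CPM, above every wild-type value, so whether the groups overlap cannot be read from these values.

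The median log2 fold change of the 56, 0.045 over both sexes, was -0.045 with library totals, -0.037 with the mitochondrial share as covariate and -0.013 by limma-voom with library weights (27 of 56 higher). Leaving out female mutant 3, it was -0.024 by edgeR, -0.022 by DESeq2 and -0.017 by limma-voom with library weights. No other setting turned its sign. That of the ring of 5 to 10 Mb was -0.051 with library totals. With library totals the female median was -0.067 and that of the difference -0.058. The medians of all genes then moved by -0.18 and -0.22, which places the neighbours 0.14 and 0.18 above them. In females limma-voom with library weights gave 0.053 (0.056 without female mutant 3). Signs turned as follows. With library totals the log2 fold change was -0.019 for Ralyl, -0.023 for Car2, -0.091 for Ythdf3, -0.018 for Armc1, -0.031 for Gyg and -0.051 for Slc7a14. With the mitochondrial share it was -0.086 for Lrrcc1, -0.084 for Ythdf3, -0.11 for Naaladl2, -0.083 for Nlgn1 and -0.014 for Eif5a2. By DESeq2 without female mutant 3 it was -0.056 for Lrrcc1, 0.000675 for E2f5, -0.059 for Ythdf3, -0.085 for Naaladl2 and -0.060 for Nlgn1. By limma-voom with library weights it was -0.023 for Ythdf3, -0.072 for Naaladl2 and -0.044 for Nlgn1 (-0.029, -0.075 and -0.055 without female mutant 3). By limma-voom it was -0.019 for Ythdf3 and with no filter -0.010. Leaving out 1 library gave -0.31 to 1.07 for Car3, -0.075 to 0.014 for E2f5, -0.084 to 0.30 for Gm43674, -0.021 to 0.18 for Kcnmb2, -0.056 to 0.37 for Lrrcc1, -0.12 to 0.057 for Mecom, -0.086 to 0.23 for Naaladl2, -0.062 to 0.20 for Nlgn1, -0.023 to 0.091 for Slc7a14 and -0.061 to 0.062 for Ythdf3. The cause of these turns was not tested. The female medians of neighbours with at least 10 CPM, with and without female mutant 3, were chosen after seeing the data.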
